A study of Arabidopsis thaliana with 10 samples.

Results

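The plastid-encoded RNA polymerase genes rpoA (ArthCp055), rpoB (ArthCp014), rpoC1 (ArthCp013) and rpoC2 (ArthCp012) were followed across 10 Affymetrix ATH1 arrays of Arabidopsis thaliana whole seedlings. They were chosen by name and plastid locus tag, not by their values, and each had 1 single-gene probe set, so 4 of the 22810 probe sets of the table are described. They stand among 69 plastid-encoded genes that had a single-gene probe set. All seedlings were Col-0 with transposon knock-outs of AtGLK1 and AtGLK2, controls included, and all were raised with hygromycin and pooled in shaken flasks of liquid medium under 16 h light and 8 h dark. The 10 arrays fall into 5 groups of 2. Controls with DMSO were taken at 0 h, 4 h and 24 h, and seedlings with dexamethasone were taken at 4 h and again at 24 h. Dexamethasone is a steroid that activates steroid-responsive transgenes. The labels give neither the construct that it induces nor its promoter, and the title of the series gives the aim, which was to find the genes downstream of AtGLK1. The labels do not say whether replicate arrays came from separate flasks, so a p-value here reflects only how far these arrays scatter, which may be technical.

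Chloroplasts keep a multisubunit RNA polymerase of bacterial type whose catalytic core is encoded in their own genome. rpoA encodes the alpha subunit, on which the core assembles, rpoB the beta subunit, and rpoC1 and rpoC2 the parts of the beta prime subunit that bacteria such as Escherichia coli make as a single protein. The core transcribes most photosynthesis genes of the plastid with nuclear-encoded sigma factors, whereas the rpoB, rpoC1 and rpoC2 genes form an operon, followed by the ribosomal protein gene rps2, that a phage-type polymerase encoded in the nucleus transcribes. rpoA lies at the end of a cluster of ribosomal protein genes. GLK transcription factors act in the nucleus, where they promote genes of light harvesting and chlorophyll synthesis.

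The median signal per array was between 33.9 and 35.9, and replicate arrays correlated across the tested probe sets with r between 0.970 and 0.987. Of 7 marker genes for seedling tissues 4 were measured. LHCB4.1 of green tissue had signals between 2649 and 4204, LHCB4.2 between 837 and 2735, the stomatal lineage gene FMA between 32.7 and 50.3 and the root hair gene EXPA7 between 32.1 and 57.2. RBCS1A, CAB1 and COBL9 had no single-gene probe set in the annotation used here. A signal is a scaled fluorescence intensity and depends on the probes, so levels are compared between arrays for 1 gene and never between genes. One-cycle labelling, named in the labels, primes on poly(A), and plastid transcripts mostly lack long poly(A) tails. How closely these signals follow the amount of plastid RNA was not tested. In whole seedlings fewer green cells and less plastid RNA per cell cannot be told apart. The first replicate of the control at 24 h and the second of dexamethasone at 4 h were known from an earlier analysis to stand apart from the other arrays, and results that turn on them are given without them too.

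The alpha subunit gene rpoA had higher signals on every dexamethasone array than on any control array. Its signals were 1847 and 2335 with dexamethasone at 4 h, against 1698 and 1513 in the controls at 4 h. At 24 h they were 1924 and 1897 with dexamethasone, against 1742 and 1181 in the controls. The controls at 0 h had 1755 and 1345, so the lowest dexamethasone array, 1847, lay above the highest control, 1755. The order of the group means, from low to high, was 1461 ± 396 in the 24 h controls, 1550.2 ± 289.7 in the 0 h controls, 1605 ± 130.3 in the 4 h controls, 1911 ± 18.7 with dexamethasone at 24 h and 2091 ± 345 with dexamethasone at 4 h (SD, n = 2 each). The control groups overlapped one another, as did the 2 dexamethasone groups, and the gap between the highest control and the lowest dexamethasone array was small beside the spread within the controls.

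The average log2 difference of rpoA with dexamethasone over both times was 0.39 (SE 0.12, 95% interval 0.12 to 0.66), which is 1.31-fold, with an unadjusted p = 0.0084 and a limma adjusted p = 0.999. It did not pass the threshold of 0.05 over the 14575 probe sets tested, of which 0.0137% passed in this comparison. Of these probe sets 0.961% had all 4 dexamethasone arrays above the 4 controls of the same times. Of all tested probe sets 0.405% had their 4 dexamethasone arrays above all 6 controls, and 2 of the other 63 tested plastid-encoded genes did. At 4 h alone the log2 difference was 0.37 (SE 0.19, limma adjusted p = 0.712) and at 24 h alone it was 0.41 (SE 0.19, limma adjusted p = 0.999). In each of these comparisons 0.00686% of the probe sets passed, and the dexamethasone arrays lay above the controls of that time in 16.5% at 4 h and 18% at 24 h. The size at 24 h rested on the control arrays: it was 0.69 without replicate 1 of the 24 h control and 0.13 without replicate 2. At 4 h it was 0.20 without the second replicate of dexamethasone. Without both arrays that stood apart, the average difference was 0.45 (limma adjusted p = 0.384).

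**Figure D1:**
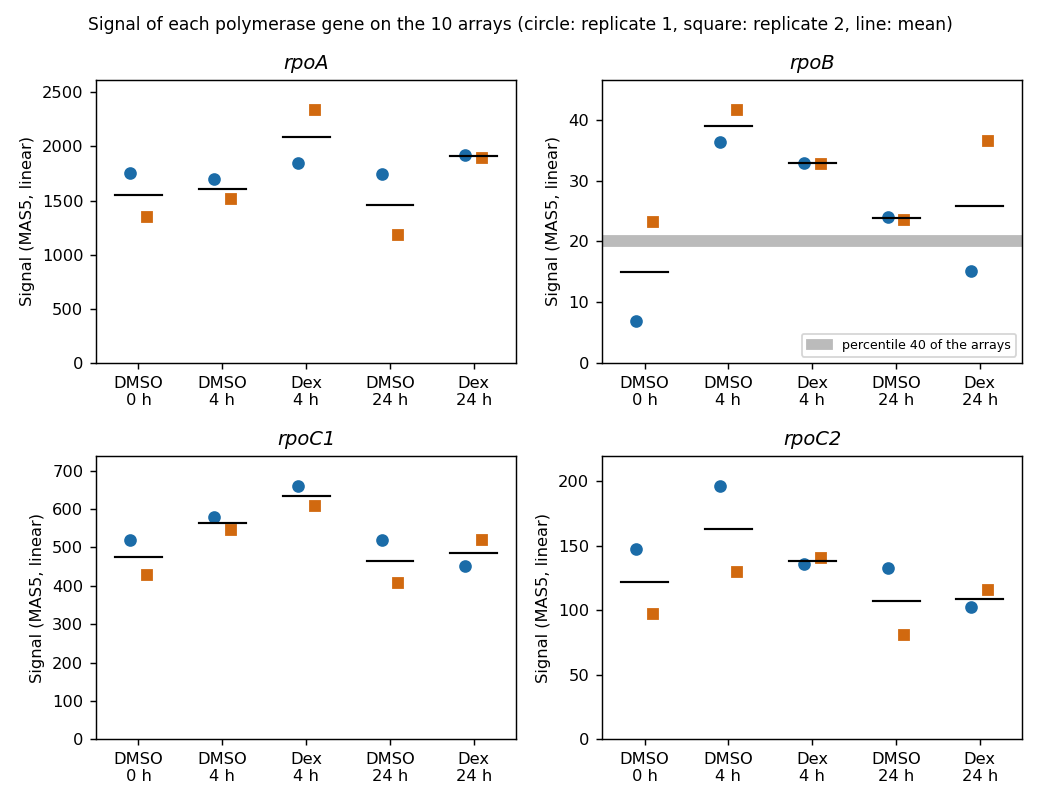
Linear MAS5 signal of rpoA, rpoB, rpoC1 and rpoC2 (vertical axes from 0) in the 5 groups, with 1 point per array and a line at the group mean; Dex is dexamethasone, and the grey band in the rpoB panel spans percentile 40 of the 10 arrays. All 4 dexamethasone arrays of rpoA lie above its controls, all 4 arrays of rpoC1 at 4 h lie above the other 6, and 2 arrays of rpoB lie below the band.

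The beta prime gene rpoC1 had its highest signals at 4 h, whatever the treatment. At 4 h the signals were 579 and 546 in the controls and 659 and 608 with dexamethasone. At 0 h they were 520.0 and 428. At 24 h they were 519.8 and 407 in the controls and 453 and 519 with dexamethasone. All 4 arrays at 4 h thus lay above the other 6 arrays, a separation that 4.19% of all tested probe sets and 5 of the other 63 plastid-encoded genes shared. The means ranked from 464 ± 79.5 in the 24 h controls through 474 ± 64.8 at 0 h, 486 ± 47.1 with dexamethasone at 24 h and 563 ± 23.5 in the 4 h controls to 633 ± 35.9 with dexamethasone at 4 h (SD, n = 2 each), and the lowest 3 groups overlapped.

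Between 4 h and 24 h, over both treatments, rpoC1 differed by a log2 value of -0.33 (SE 0.09, 95% interval -0.54 to -0.13, limma adjusted p = 0.0593), which did not pass. This comparison was added after the data had been seen, and 7.06% of the tested probe sets passed in it. All arrays of rpoC1 at 24 h lay below all at 4 h, as in 6.52% of the probe sets. The adjusted p was 0.0148 without replicate 1 of the 24 h control and 0.0049 without both arrays that stood apart, where the log2 value was -0.45. It was 0.177 without replicate 2 of the 24 h control, where the log2 value was -0.27, and 0.194 without replicate 1 of dexamethasone at 24 h. With dexamethasone its average difference was 0.12 (SE 0.09, 95% interval -0.08 to 0.33, limma adjusted p = 0.999), and at 4 h, where both dexamethasone arrays lay above both controls, it was 0.17 (SE 0.14, limma adjusted p = 0.814). Such a separation in this direction was found in 16.5% of all tested probe sets.

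rpoC2, which encodes the beta double prime subunit of the core, had a wide spread between replicate controls. The controls had 147 and 96.9 at 0 h, 196 and 130.1 at 4 h, and 133 and 81.1 at 24 h. With dexamethasone the signals were 136 and 141 at 4 h and 103 and 116 at 24 h. At 4 h and at 24 h the signals with dexamethasone lay between those of the 2 controls. Group means were 107 ± 36.6 in the 24 h controls, 109 ± 9.11 with dexamethasone at 24 h, 122 ± 35.6 at 0 h, 138 ± 3.53 with dexamethasone at 4 h and 163 ± 46.6 in the 4 h controls (SD, n = 2 each). The signals of neighbours in this order overlapped. The log2 difference with dexamethasone was -0.20 at 4 h (95% interval -0.76 to 0.36, limma adjusted p = 0.879) and 0.07 at 24 h (95% interval -0.49 to 0.62, limma adjusted p = 0.999). From 4 h to 24 h over both treatments it was -0.47 (SE 0.17, limma adjusted p = 0.135), and of the alternatives tried it passed only without both arrays that stood apart (log2 value -0.62, limma adjusted p = 0.0203). It was -0.30 (limma adjusted p = 0.316) without replicate 2 of the control at 24 h.

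rpoB, the gene of the beta subunit, was at the edge of what the arrays measured. It lay below percentile 40 of the array on 2 of 10 arrays, with signals of 6.88 on replicate 1 of the 0 h control and 15.2 on replicate 1 of dexamethasone at 24 h. Its other signals were 23.1 at 0 h, 36.3 and 41.6 in the 4 h controls, and 24.0 and 23.5 in the 24 h controls. With dexamethasone they were 32.9 and 32.8 at 4 h and 36.4 on the second array at 24 h. The table used here has no detection calls, so it was not tested whether signals this low lie above background, and the added constant shrinks their log2 differences. The group means were 15.0 ± 11.5 at 0 h, 23.8 ± 0.353 in the 24 h controls, 25.8 ± 15.0 with dexamethasone at 24 h, 32.8 ± 0.0474 in the dexamethasone group at 4 h and 39.0 ± 3.71 in the 4 h controls (SD, n = 2 each). Both control arrays at 4 h lay above both at 0 h, as in 21.9% of all tested probe sets. The log2 difference of 1.30 (SE 0.40, limma adjusted p = 0.145) did not pass, whereas 2.63% of probe sets did. With the second 0 h control left out, so that the low array stands alone, it was 1.95 with a limma adjusted p = 0.0442, and with the low array left out it was 0.65. With dexamethasone rpoB differed by -0.22 at 4 h (95% interval -1.10 to 0.66) and by 0.00 at 24 h (95% interval -0.88 to 0.89). At 4 h both dexamethasone arrays lay below both controls, as in 18.4% of the probe sets. In the controls both arrays at 24 h lay just above both at 0 h, as in 16.1%, with a log2 difference of 0.68 (limma adjusted p = 0.971). From 4 h to 24 h over both treatments it differed by -0.51 (SE 0.21, limma adjusted p = 0.196). That difference was -0.74 (limma adjusted p = 0.0254) without replicate 2 of dexamethasone at 24 h and -0.32 (limma adjusted p = 0.440) without replicate 1, its low array.

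**Figure D2:**
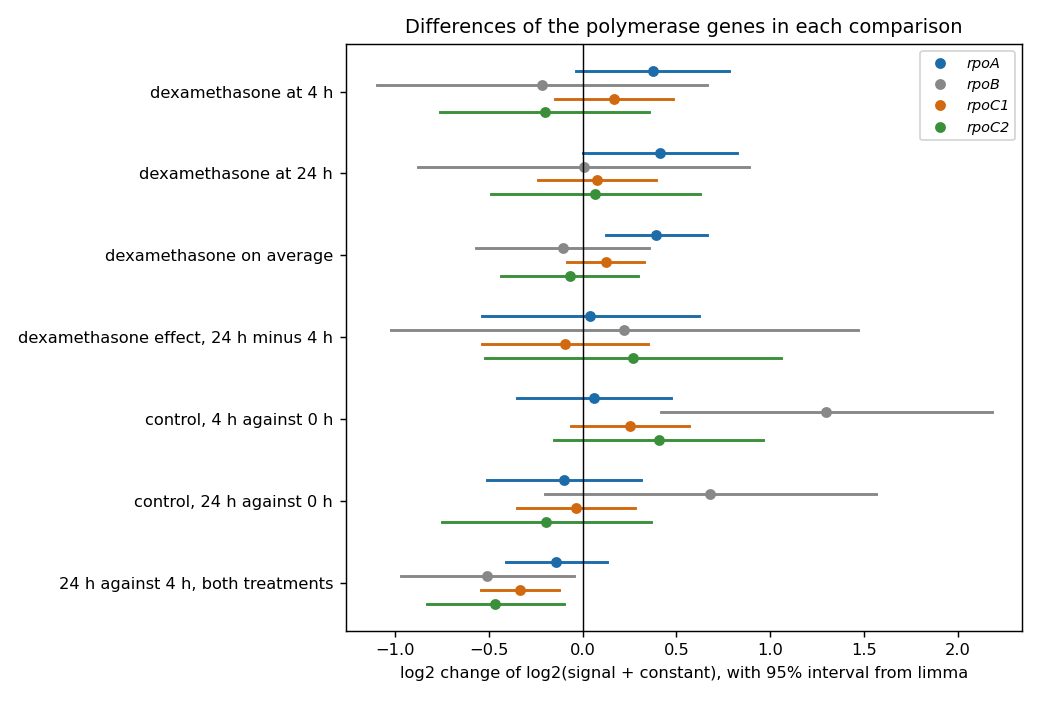
Log2 differences of the 4 genes in each comparison (horizontal axis, on the log2(signal + 4.35) scale), with a point for the limma estimate and a bar for its unadjusted 95% interval. The interval of rpoA for dexamethasone on average runs from 0.12 to 0.66, and none of the 4 genes passed after adjustment in any comparison.

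Over the polymerase genes together, limma called 0 of 4 in every comparison. At an unadjusted p below 0.05, dexamethasone gave 0 genes at 4 h, and rpoA alone at 24 h and again on average. There was 1 in the controls from 0 h to 4 h, which was rpoB, and there were 3 from 4 h to 24 h over both treatments, which were rpoB, rpoC1 and rpoC2. Of the 14575 probe sets, an unadjusted p below 0.05 was found for 1022 with dexamethasone at 4 h, 451 at 24 h and 620 over both times, and for 1983 from 0 h to 4 h and 3001 from 4 h to 24 h. The 4 genes had a median log2 difference with dexamethasone of -0.02 at 4 h, 0.07 at 24 h and 0.03 over both times, and over all tested probe sets it was -0.01, 0.01 and 0.00. Without replicate 1 of the 24 h control the median at 24 h was 0.33. The dexamethasone differences at 24 h and 4 h were set against each other in the same fit, and no polymerase gene passed (0% of all probe sets did, and 799 of them had an unadjusted p below 0.05). The estimates ran from -0.09 for rpoC1 to 0.27 for rpoC2, and the smallest limma adjusted p was 0.920. The controls at 24 h were a full day later than those at 0 h. Between them the 4 genes had a median log2 difference of -0.07, and 0% of the probe sets passed although 662 had an unadjusted p below 0.05.

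Against the other plastid-encoded transcripts the polymerase genes took different places in each comparison. The other 63 tested plastid-encoded genes had a median log2 difference of -0.11 with dexamethasone at 4 h. Of them 20 lay above 0 and 43 below, while 47.8% of all tested probe sets lay above 0. All 63 lay below rpoA. Only 4 of them lay above rpoC1, whereas 44 lay above rpoC2 and 47 above rpoB. These places hold for the fit with all arrays. Without replicate 2 of dexamethasone at 4 h rpoA had 0.20, and its place among the 63 genes was not computed in that fit. At 24 h the median of the other 63 was 0.20, with 59 above 0, while 52.5% of all tested probe sets lay above 0. The polymerase genes had a median of 0.07 there, and all 4 lay above 0. At that time 9 of the 63 lay above rpoA, 54 above rpoC1, 56 above rpoC2 and 59 above rpoB. Over both times 1 lay above rpoA, which was ndhE at 0.41, and rbcL was close at 0.39. These medians, counts and places of the 63 genes were not computed with arrays left out. From 0 h to 4 h in DMSO the other genes had a median of 0.53 and 11 of 63 rose, while 1.1% of all tested probe sets rose, among the plastid genes were atpI of the ATP synthase by 1.31 and ccsA of cytochrome maturation by 0.63 (limma adjusted p = 0.0061 and 0.0143). rpoA had 0.06, rpoC1 0.25, rpoC2 0.41 and rpoB 1.30 in that comparison, and 2 of the 63 lay above rpoB. Without replicate 1 of the 0 h control rpoC1 had 0.39 and rpoC2 0.70, and without replicate 2 they had 0.11 and 0.12. The value of rpoC2 was also 0.12 without replicate 1 of the 4 h control and 0.69 without its replicate 2. The other plastid-encoded genes were uneven at 0 h too. Relative to its mean over the arrays, their median was -0.54 on replicate 1 of the 0 h control and -0.17 on replicate 2. Their median difference and the number that rose were not computed without either array. Clock time and duration of treatment cannot be told apart in the comparison of 4 h with 0 h. That comparison shares the 4 h controls with the comparison of dexamethasone at 4 h.

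**Figure D3:**
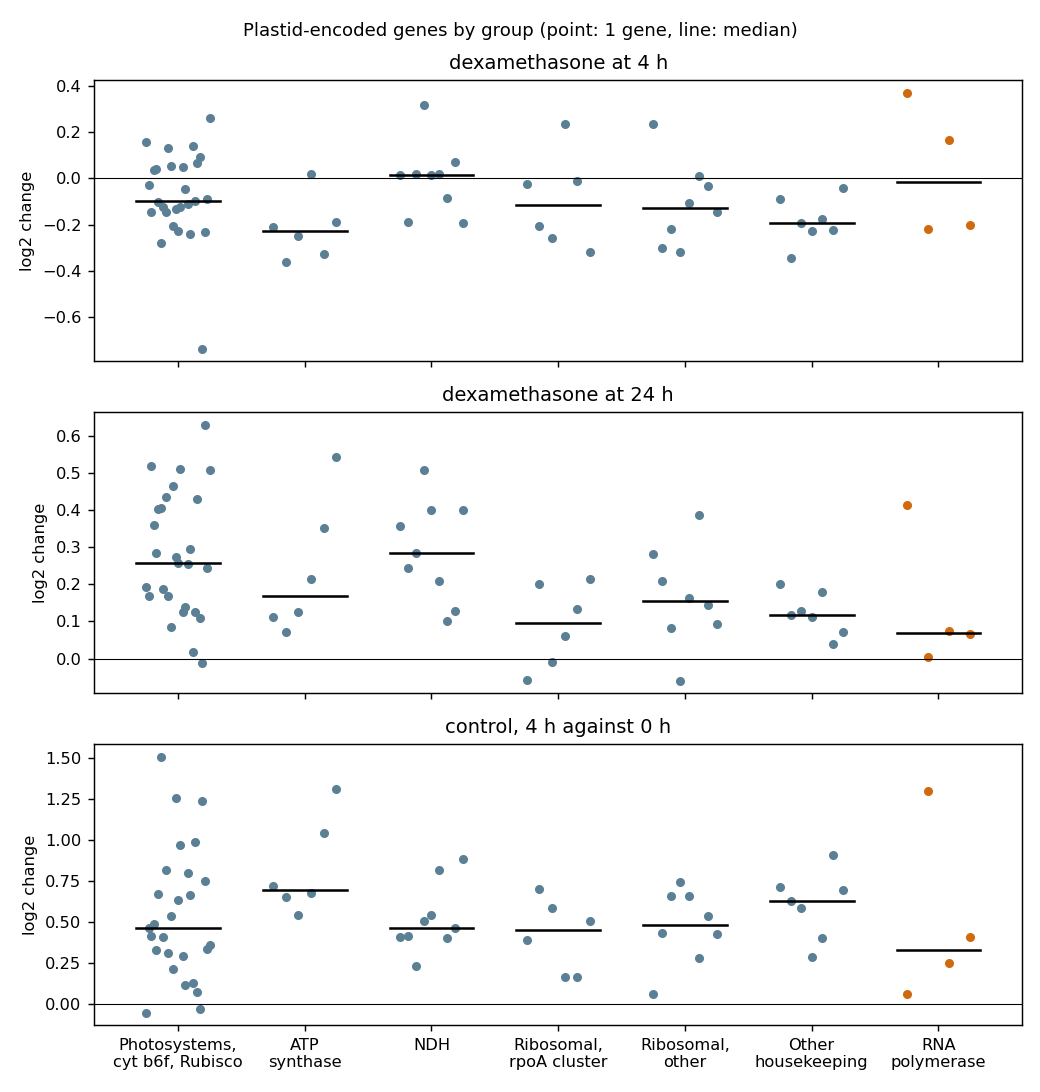
Log2 differences (vertical axes, separate scales) of the tested plastid-encoded genes in 3 comparisons, with 1 point per gene and a line at the median of each functional group. The RNA polymerase group (orange) has medians of -0.02, 0.07 and 0.33, and the gene highest in the upper panel, fitted with all arrays, is rpoA.

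From 4 h to 24 h the operon genes lay at the low end of the plastid genome. Over both treatments the median log2 difference of the polymerase genes was -0.40, and that of the other 63 plastid-encoded genes was -0.10. Of these 63, 15 lay above 0 and 48 below, while 52.8% of all tested probe sets lay above 0. All 63 had higher values than rpoB and rpoC2, and 60 had higher values than rpoC1, while rpoA lay among them with 41 above and 22 below. These places hold for the fit with all arrays. In it the genes below rpoC1 were rps15 at -0.436, atpI at -0.354 (limma adjusted p = 0.269) and rps2 at -0.348. Leaving out 1 array moved rpoB to -0.32 and rpoC2 to -0.30 at the nearest to 0. The values of rps15, atpI and rps2 without that array were not examined, so whether the places change was not tested. rpoB was also close to the lower limit of the signals. The genes of photosystems, cytochrome b6f and Rubisco had a median of -0.04 over 27 genes, the NDH genes -0.04 over 9, the ATP synthase genes -0.14 over 6 and the ribosomal protein genes outside the cluster of rpoA -0.24 over 8. Of all tested plastid-encoded genes 2 fell, rps2 and rps15 of the small ribosomal subunit, and of all tested probe sets 3.12% fell. The first genes of these lists had values of 0.01 for psbA and -0.20 for psbB of photosystem II, -0.19 for atpA and -0.12 for atpB of the ATP synthase, and -0.01 for ndhA and -0.05 for ndhC of the NDH complex. accD of fatty acid synthesis had -0.20 and the protease gene clpP -0.03, and the smallest limma adjusted p of these 8 genes was 0.286. The difference between these groups was not tested.

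rps2, which follows rpoC2 in the plastid genome, also had its highest signals at 4 h. Its signals were 648 and 645 in the 4 h controls and 647 and 619 with dexamethasone at 4 h. They were 483 and 412 at 0 h, 538 and 423 in the 24 h controls, and 523 and 532 with dexamethasone at 24 h. From 4 h to 24 h it fell by 0.35 on the log2 scale (SE 0.09, limma adjusted p = 0.0403). In that comparison, which was added after the data had been seen, rpoC1 had a similar value of -0.33 and did not pass. The fall of rps2 was not examined with single arrays left out. With dexamethasone the log2 differences of rps2 were -0.03 at 4 h and 0.14 at 24 h (limma adjusted p = 0.968 and 0.999). rps4, the next measured gene of the list of other ribosomal protein genes, had -0.20 from 4 h to 24 h (limma adjusted p = 0.484). rps2 was also the plastid-encoded gene whose profile was most like that of the polymerase genes, with r = 0.91 between its log2 signal and the mean of the 4 genes over the 10 arrays. rpoB weighed most in that mean, because the genes were not scaled to equal spread.

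Of the ribosomal protein cluster that ends in rpoA, rpl36 and rpl14 were examined by array. rpl36, the measured gene of the cluster nearest to rpoA, had signals of 1436 and 1623 with dexamethasone at 4 h against 1499 and 1122 in the controls, and 1219 and 1358 against 1275 and 1192 at 24 h. These groups overlapped at both times, and its average log2 difference with dexamethasone was 0.15 (SE 0.10, limma adjusted p = 0.999). rpl14 had signals of 367 and 406 with dexamethasone at 4 h against 415 and 372 in the controls, and 401 and 375 against 350.0 and 467 at 24 h, which overlapped too, and a log2 difference of -0.04 on average (limma adjusted p = 0.999). Whether either differed from rpoA was not tested. Over the 6 measured genes of the cluster, of 10 listed, the median was -0.02 on average, and the largest value among them was that of rpl36. In the controls from 0 h to 4 h 2 of the 6 rose, rpl16 by 0.70 and rpl22 by 0.58 on the log2 scale (limma adjusted p = 0.0262 and 0.0374), while rpl36 had 0.16 and rpoA 0.06.

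Over the 10 arrays the pairs of polymerase genes differed in how closely they varied together. rpoC1 and rpoC2 varied together, with Pearson's r = 0.793 (permutation p = 0.0066, adjusted p = 0.0396) and Spearman's rho = 0.830 (permutation p = 0.00468, adjusted p = 0.0281). The p-values were adjusted over the 6 pairs of genes. The permutation treated the 10 arrays as exchangeable, although they come in 5 groups of 2. Its p-values therefore make no allowance for the time and treatment that arrays share. Without the 2 arrays farthest from the median of rpoC1, r between rpoC1 and rpoC2 was 0.806. rpoA and rpoC1 had r = 0.676 and rho = 0.430 (permutation p = 0.033 and 0.221, adjusted p = 0.0991 and 0.441), and r was 0.363 without the 2 farthest arrays, so that relation rested on them. rpoA and rpoC2 had r = 0.531 and rho = 0.358 (permutation p = 0.113 and 0.316, adjusted p = 0.225 and 0.473), and r was 0.181 without the same 2 arrays.

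rpoB, although cotranscribed with rpoC1 and rpoC2, was not shown to vary with them. It had r = 0.395 and rho = 0.467 with rpoC1 (permutation p = 0.266 and 0.180, adjusted p = 0.399 and 0.441), r = 0.155 and rho = 0.188 with rpoC2 (permutation p = 0.653 and 0.610, adjusted p = 0.784 and 0.732), and r = 0.041 and rho = -0.006 with rpoA (permutation p = 0.865 and 0.998, adjusted p = 0.865 and 0.998). Without the 2 arrays farthest from the median of rpoB, r was 0.671 with rpoC1 and 0.610 with rpoC2. Without the 2 farthest from the median of rpoA, r between rpoA and rpoB was -0.156. The arrays come in groups of 2 and share the scaling, so the 10 points are not fully independent.

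Part of the shared variation lay between replicate arrays of the same group. rpoA, rpoC1 and rpoC2 were each higher on replicate 1 than on replicate 2 in all 3 control groups. In this order of genes the log2 gaps were 0.38, 0.28 and 0.58 at 0 h, 0.17, 0.08 and 0.58 at 4 h, and 0.56, 0.35 and 0.68 at 24 h. With dexamethasone these genes had gaps of -0.34, 0.11 and -0.05 at 4 h, and of 0.02, -0.20 and -0.16 at 24 h, so they did not share a direction there. Of the other 63 plastid-encoded transcripts in the control groups, 13 were higher on replicate 1 at 0 h, 27 at 4 h and 51 at 24 h, so most of them went the same way as the 3 genes at 24 h and the opposite way at 0 h. On replicate 1 of the 0 h control their median lay 0.54 log2 units below its mean over the arrays (-0.54), where rpoA was at 0.05, rpoC1 at 0.00 and rpoC2 at 0.23. rpoB was at -1.39 there. After the group means were subtracted, the deviations correlated with r = 0.866 for rpoC1 and rpoC2, 0.852 for rpoA and rpoC2 and 0.692 for rpoA and rpoC1. Those of rpoB had r = -0.182 with rpoC1, -0.365 with rpoC2 and -0.407 with rpoA. These values are a description of 5 pairs of arrays.

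**Figure D4:**
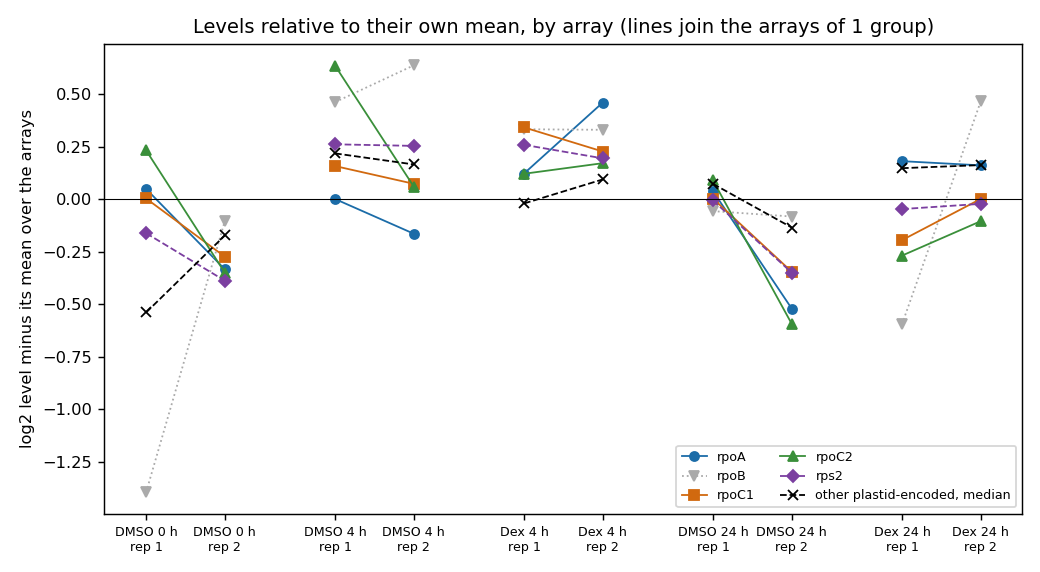
Log2 level of each gene minus its own mean over the 10 arrays (vertical axis), by array, for the 4 polymerase genes, rps2 and the median of the other 63 tested plastid-encoded genes; lines join the arrays of 1 group. On replicate 1 of the 0 h control the other plastid-encoded genes are at -0.54 and rpoB at -1.39, while rpoC2 is at 0.23.

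Over all 10 arrays the 4 genes also differed in how they followed the rest of the plastid genome. For rpoB the median correlation with the other 63 plastid-encoded genes was 0.72, against 0.30 for rpoA, 0.28 for rpoC1 and 0.14 for rpoC2, and with genes outside the plastid genome all 4 had medians between -0.04 and 0.00. Replicate 1 of the 0 h control held the lowest values of rpoB and of the median of the other plastid-encoded genes. They were at -1.39 and -0.54 there, each relative to its own mean over the arrays. The correlations were not computed without that array, so this order may rest on it. The genes whose profiles were most like the mean of the 4, among 7894 named candidates and over 10 arrays, were AT3G26630 (r = 0.94), the expansin-like gene EXLB1 (0.94), AT2G41840 (0.91), AT1G52770 (0.91) and rps2 (0.91). Of genes not encoded in the plastid the next was AT5G17760 (0.90). The signal of AT1G52770 was low, between 7.66 and 35.1, and whether it lay above background was not tested. Plastid-encoded genes made up 5 of the 100 highest and 0.798% of the candidates. The 4 genes were centred but not scaled to equal spread before averaging, so rpoB weighed most in the mean behind these likenesses. Its signals spanned 6.04-fold over the arrays, against 1.98-fold for rpoA, 1.62-fold for rpoC1 and 2.42-fold for rpoC2. rpoB was also close to the lower limit of the signals and had r = 0.20 with the mean of the other polymerase genes.

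Few nuclear partners of the polymerase could be read. The lists of 6 sigma factors, 13 polymerase-associated proteins and 5 genes of plastid-to-nucleus signalling, GLK1 and GLK2 among them, had 0 single-gene probe sets in the annotation used here, so the targeted genes themselves could not be checked. Of 3 phage-type polymerases 1 was measured: RPOTMP (AT5G15700) had signals between 8.31 and 20.4, above percentile 40 on 1 array, and was not tested. Of 5 factors for the editing or splicing of rpo transcripts 3 were measured. The editing factor YS1, which acts on rpoB, had signals between 5.42 and 16.4 and was not tested. CRR22, an editing factor of ndh and rpoB transcripts, had log2 differences of -0.42 with dexamethasone at 4 h and 0.34 at 24 h (limma adjusted p = 0.764 and 0.999). OTP70, a factor for rpoC1 splicing, had -0.24 and -0.23 (limma adjusted p = 0.895 and 0.999). The signals of CRR22 were between 16.7 and 35.3 and those of OTP70 between 13.1 and 25.2, so both were low. CRR22 lay above percentile 40 on 8 arrays and OTP70 on 3, and whether they lay above background was not tested.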

How the data were processed

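Each array has 1 deposited column of linear probe set intensity. The authors used MAS5 and GCOS, according to the submitters' processing notes; versions: not given in the sources used here. On every array the 2% trimmed mean was 100.0, so the authors' global scaling was kept, and it hides any change in total messenger RNA. Genes were named through the platform annotation and RefSeq (TAIR10.1, for names and gene order only): 13513 probe sets had 1 gene, 503 several and 8730 none, and 64 control probe sets were left out. Signals were transformed to log2(signal + 4.35), with percentile 20 of all values as the constant. Probe sets above percentile 40 of the array on at least 2 arrays were kept (14575, among them the 4 polymerase probe sets and 67 of 69 plastid-encoded ones); rpoB passed on 8 arrays.

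Tests of differences used lmFit and eBayes with a trend from limma 3.58.1 (R 4.3.3), two-sided, with 1 mean per group over 10 arrays; the average effect of dexamethasone and the 24 h against 4 h comparison used the 8 arrays at 4 h and 24 h with the other factor as an additive term. Benjamini-Hochberg adjustment ran over all probe sets kept. Correlation p-values came from 100000 permutations (scipy 1.17.1); figures were made with matplotlib 3.10.9. The number of arrays limits the precision: on simulated data with 14575 probe sets, the average effect of dexamethasone recovered 94% of simulated differences of 1 (log2) and 32% of those of 0.5. Recovery was 82% and 4% at 4 h, 76% and 2% at 24 h, and 26% and 2% for the difference between times. The false calls were 10 for the average effect, 8 at 4 h, 13 at 24 h and 5 for the difference between times. For each comparison 50 probe sets were changed at each size, whereas 2 passed in the real average effect of dexamethasone. Recovery with fewer changed probe sets was not tested and may be lower. Members and lists were chosen with earlier results of these data known. The rule for named genes took the 4 polymerase genes, all measured members of lists with 4 or fewer and otherwise the first 2, and the 5 genes most like them. The genes atpI, ccsA, rpl16, rpl22 and rps15 were named after their values were seen, as examples of genes that passed. After their values were seen, ndhE and rbcL were named too, for their place beside rpoA, and atpI again for its place below rpoC1.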

Additional observations from a re-analysis of the deposited data

How the results depend on the processing

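The constant (1 or 16), the filter, quantile normalization, the trend, the fit on only the groups compared, the replicate block, leaving out each array and leaving out both arrays that stood apart were tried. Over 480 estimates for the 4 genes, 444 kept their direction and their side of the threshold, 31 changed sign and 5 passed where they had not before; the cause was not tested. Near 0, rpoB with dexamethasone at 24 h was -0.0102 with a constant of 1 and -0.0036 with quantile normalization, and rpoA from 0 h to 4 h was -0.0029 with quantile normalization. Without both arrays that stood apart, rpoC2 on average was 0.0901, rpoC1 in the difference between times 0.0223, and the median of the 4 genes at 24 h 0.33, and the called polymerase genes from 4 h to 24 h were 2; probe sets called were 3 at 4 h, 15 on average and 639 from 0 h to 4 h.

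With single arrays left out, log2 values at 4 h with dexamethasone ran from -0.49 to 0.0864 for rpoC2. At 24 h they ran from -0.53 to 0.53 for rpoB, -0.10 to 0.25 for rpoC1 and -0.28 to 0.41 for rpoC2, and the median of the 4 genes from -0.0541 to 0.33. On average they ran from -0.34 to 0.0831 for rpoB and -0.23 to 0.0739 for rpoC2. The difference between times ran from -0.24 to 0.32 for rpoA, -0.31 to 0.75 for rpoB, -0.27 to 0.0797 for rpoC1 and -0.0745 to 0.61 for rpoC2, with a median from -0.16 to 0.28. From 0 h to 4 h rpoA ran from -0.13 to 0.25. From 0 h to 24 h the ranges were -0.38 to 0.18 for rpoA, -0.21 to 0.14 for rpoC1 and -0.53 to 0.15 for rpoC2. Polymerase genes called ran from 0 to 1 from 0 h to 4 h and from 4 h to 24 h. Probe sets called ran from 1 to 80 with dexamethasone at 4 h, 1 to 8 at 24 h, 1 to 3 on average, 0 to 14 for the difference between times, 134 to 482 from 0 h to 4 h, 0 to 4 from 0 h to 24 h and 603 to 1358 from 4 h to 24 h; 228 passed from 0 h to 4 h without the trend, against 383.

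Replicate numbers are shared by the groups, and deviations of same-numbered arrays correlated with r between -0.42 and 0.18. The value of -0.42 was between the 24 h control and dexamethasone at 4 h, the groups with the arrays that stood apart. With 2 arrays a group these correlations cannot settle whether the numbers mark pairs. With the replicate number as a block, probe sets called on average were 1 against 2, the log2 values of the 4 genes did not move, and no polymerase gene was called; the smallest adjusted p was 0.0746, for rpoC1 from 4 h to 24 h.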
